A study of Mus musculus with 14 samples.

Results

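Dazl, Ddx4, Dnd1 and Lin28a encode RNA-binding proteins on which germ cells of the mouse depend, and their transcripts were followed here in primordial germ cells, from which eggs and sperm later form. The genes were represented by every probe set to which the platform annotation gave exactly 1 of the 4 symbols. This selected 6 probe sets among the 45101 of the array: 2 for Dazl (1419542_at and 1449502_at), 1 for Ddx4 (1427242_at), 1 for Dnd1 (1455367_at) and 2 for Lin28a (1437752_at and 1421749_at). The 14 expression arrays formed 7 groups of 2 biological replicates, with 1 group each for embryonic day (E) 9.5, 10.5 and 11.5 and separate groups of each sex for E12.5 and E13.5. Germ cells of E10.5 to E13.5 came from matings of BDF1 females to males that carried the stella-EGFP transgene on a mixed B6/CBA background. They were sorted by the fluorescence of that reporter from trypsin-treated genital ridges, so cells with little reporter signal were not collected. The E9.5 cells were C57BL/6, came from an earlier study of the same laboratory, and carry no transgene in the labels, which describe no sort for them. Their RNA was isolated with another kit and amplified over 22 PCR cycles in place of 12. Sex was not given before E12.5. All groups were made from 5 ng of total RNA, stated to equal 500 cells.

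Dazl and its relatives bind U-rich stretches of transcripts and can raise their translation, and Dazl is needed for germ cells to become competent to respond to the signals that start oogenesis or spermatogenesis. Ddx4, also called mouse vasa homologue, is a DEAD-box RNA helicase of the germ granule, where piRNA factors gather. Dnd1, mutated in the Ter strain, keeps early germ cells alive and acts with Nanos proteins and the CCR4-NOT deadenylase on target transcripts. Lin28a binds the precursors of let-7 miRNAs and blocks their maturation, a step known to be needed for the specification of germ cells through Prdm1.

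The CpG-rich promoters of Dazl and Ddx4 are known to be methylated in somatic cells, and the embryonic days sampled here span the loss of DNA methylation in germ cells. The 250 bases upstream of 1 annotated transcript start are therefore shown from the promoter table of RefSeq (build GRCm38.p6). The windows are Dazl at chr17:50293621-50293870, Ddx4 at chr13:112652311-112652560 and Lin28a at chr4:134018817-134019066, all on the minus strand. The window of Dnd1 is not reported here. The windows of Ddx4 and Lin28a lie inside the annotated span of the gene, so other transcripts of these genes start further upstream, and the counts below hold for these windows alone. Sequences run 5′ to 3′ along the gene, and capitals mark CpG dinucleotides.
Dazl: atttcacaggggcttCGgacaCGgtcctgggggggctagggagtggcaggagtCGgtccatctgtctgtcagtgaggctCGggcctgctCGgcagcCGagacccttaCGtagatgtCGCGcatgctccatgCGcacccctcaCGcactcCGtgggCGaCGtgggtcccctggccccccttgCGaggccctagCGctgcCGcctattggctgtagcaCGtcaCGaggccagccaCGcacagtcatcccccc
Ddx4: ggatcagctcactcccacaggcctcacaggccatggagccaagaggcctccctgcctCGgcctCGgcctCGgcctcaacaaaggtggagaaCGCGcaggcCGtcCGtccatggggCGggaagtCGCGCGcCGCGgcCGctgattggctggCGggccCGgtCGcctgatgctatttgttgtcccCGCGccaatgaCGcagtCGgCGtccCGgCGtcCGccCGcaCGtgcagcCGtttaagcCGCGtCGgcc
Lin28a: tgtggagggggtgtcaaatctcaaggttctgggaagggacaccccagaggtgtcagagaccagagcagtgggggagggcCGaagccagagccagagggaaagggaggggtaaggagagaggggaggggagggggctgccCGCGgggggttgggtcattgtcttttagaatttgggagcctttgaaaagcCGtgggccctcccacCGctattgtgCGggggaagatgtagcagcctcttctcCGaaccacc
The window of Ddx4 held 31 CpG, that of Dazl 20 and that of Lin28a 7. Of all 32851 promoter windows of this length, 5.19% held at least as many CpG as Ddx4, 17.95% at least as many as Dazl and 46.3% at least as many as Lin28a, and the median window held 6. The E-box CACGTG, searched on both strands, occurred once in the Ddx4 window and in neither of the other windows, and 6.0% of all windows held it. The E2F core GCGGGA, also searched on both strands, likewise occurred once in the Ddx4 window and in neither of the others, against 16.9% of all windows. DNA methylation was not measured on these arrays.

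Lin28a recognises a GGAG element in the loop of let-7 precursors, and the following pair shows the difference that the family carries. Both are written from the first base of the 5p arm to the last base of the 3p arm as RefSeq gives them, with GGAG between the arms in capitals.
let-7g: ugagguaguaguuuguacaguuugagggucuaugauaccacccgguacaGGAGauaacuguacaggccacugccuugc
let-7b: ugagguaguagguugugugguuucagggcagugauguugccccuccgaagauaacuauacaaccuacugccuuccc
Of the 11 mouse let-7 hairpins in the RefSeq table, 10 had both arms annotated. Among these, 8 held GGAG between the arms and 2, let-7b and let-7c-2, did not. The 5p arms of these 10 shared 1 seed, GAGGUAG, at bases 2 to 8. Levels of miRNAs were not measured here.

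Values are log2 signals, and no detection call was used, so that a value below 4.72, the median of the whole table, is called dim. Differences are given as log2 changes with their standard error (SE) from a limma model of 18032 genes, each represented by its brightest probe set. Adjusted p-values are those of Benjamini and Hochberg over all these genes, and a change was called with an adjusted p under 0.05. The 2 arrays of a group limit the precision, and the spread between them covers biological and technical variation together. In RNA from many cells, fewer cells of a type and less RNA per cell cannot be told apart. The array medians lay between 4.66 and 4.80, and each array correlated with its replicate at r = 0.961 to 0.982. The 9 measured germ cell markers, Dppa3 and Pou5f1 among them, were above the dim level on all 14 arrays. Their summed linear signal, a sum of 2 to the power of each log2 value, was 43875 to 54293 at E9.5 and 29981 to 32939 in E13.5 females. The 3′ minus 5′ signal of Gapdh, which reflects RNA integrity and amplification, was 3.09 in E13.5 female replicate 2 and 3.16 in E13.5 male replicate 2, and at most 2.53 on the other arrays.

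Dazl rose at each step from E9.5 to E12.5 and stood at a level near 13 in both sexes thereafter. Its brighter probe set 1419542_at read 5.71 and 3.70 at E9.5, 8.96 and 9.18 at E10.5, and 12.27 and 11.89 at E11.5. The readings were 13.17 and 13.16 in E12.5 females, 13 and 13.09 in E12.5 males. At E13.5 they were 13.52 and 13.16 in females and 13.41 and 13.25 in males. Up to E12.5 the arrays of each day lay above all arrays of the day before, and E9.5 replicate 2 was the only array below the dim level.

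**Figure D1:**
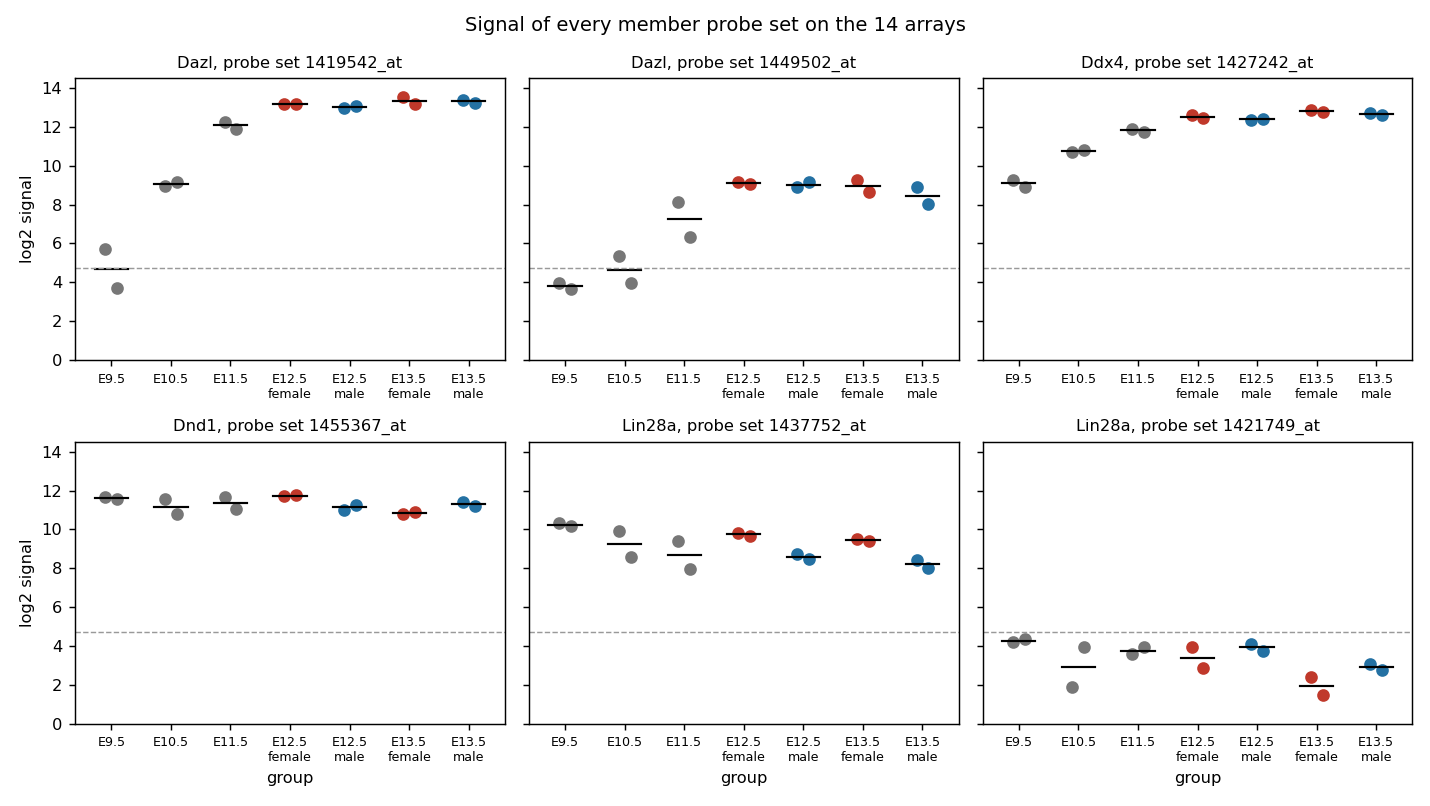
Log2 signal (vertical axis) of the 6 probe sets of Dazl, Ddx4, Dnd1 and Lin28a in the 7 groups (horizontal axis). Each point is 1 array (grey, not sexed; red, female; blue, male), black bars are means of 2 arrays, and the dashed line is the table median of 4.72. Dazl and Ddx4 climb to E12.5, Dnd1 lies between 10.79 and 11.76 on all arrays, and Lin28a 1421749_at lies below the line throughout.

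From E9.5 to E10.5 Dazl rose by 4.37 ± 0.45 (SE) on the log2 scale, or 20.6-fold (adjusted p = 0.00122, limma, n = 2 against 2), the largest rise of the 18032 genes. Of the 4 genes, 2 were called in this comparison, Dazl and Ddx4, against 1.07% of all genes. Both calls were lost when the model held the 4 compared arrays alone (adjusted p = 0.683). Age cannot be told apart here from strain, source study, RNA kit and the number of PCR cycles. The mean of Dazl at E9.5, 4.71 ± 1.42 (SD), lay below the dim level, which limits what the fold says.

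Dazl rose again from E10.5 to E11.5, within 1 study and 1 protocol, by 3.01 ± 0.18 (8.06-fold, adjusted p = 0.000112), the second largest rise of all genes tested. Again Dazl and Ddx4, 2 of the 4 genes, were called, against 0.0776% of all genes, which is 14 genes. The call for Dazl was lost with all 14 arrays in the model (adjusted p = 0.0512) and when the model held the 4 compared arrays alone (adjusted p = 1).

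Between E11.5 and E12.5 the gain of Dazl was smaller, 1.09 ± 0.18 in females (adjusted p = 0.0163) and 0.97 ± 0.18 in males (adjusted p = 0.0352). In females 2 of the 4 genes were called (Dazl and Ddx4), against 1.88% of all genes, and in males 1 was (Dazl), against 1.01%. Both calls for Dazl depended on single arrays. Without E11.5 replicate 2 the adjusted p was 0.136 in females and 0.312 in males. It was 0.174 and 0.166 without female replicate 1 or 2, and 0.135 and 0.318 without male replicate 1 or 2.

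After E12.5 no further change of Dazl was called. The difference from E12.5 to E13.5 was 0.18 ± 0.18 in females (adjusted p = 0.738) and 0.29 ± 0.18 in males (adjusted p = 0.533). Males and females differed by -0.12 ± 0.18 at E12.5 (adjusted p = 0.893) and by -0.01 ± 0.18 at E13.5 (adjusted p = 0.987), males minus females, with a 95% interval of -0.41 to 0.39 at E13.5.

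Across the whole span studied under 1 protocol, from E10.5 to E13.5, Dazl was 4.27 ± 0.18 higher in females (19.3-fold, adjusted p = 1.69e-06) and 4.26 ± 0.18 higher in males (adjusted p = 1.59e-06). In each sex 2 of the 4 genes were called, Dazl and Ddx4, in comparisons that called 18% of all genes in females and 12.9% in males. These comparisons share the E10.5 arrays.

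The other probe set of Dazl, 1449502_at, showed the climb to E12.5 with larger spread between replicates. It read 3.97 and 3.64 at E9.5, 5.34 and 3.95 at E10.5, and 8.15 and 6.35 at E11.5. In E12.5 females it read 9.17 and 9.05, in E12.5 males 8.92 and 9.15. At E13.5 the females read 9.29 and 8.66 and the males 8.90 and 8.03. The E9.5 and E10.5 arrays overlapped on this probe set, and the E13.5 arrays overlapped with those of E12.5 in females. In males both E13.5 arrays lay below both E12.5 arrays, and they overlapped with those of E11.5. The male difference from E12.5 to E13.5 was -0.57 on 1449502_at and 0.285 on 1419542_at, opposite in sign, and neither was called.

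In a model of all 34945 probe sets with a single symbol, 1449502_at rose from E10.5 to E13.5 by 4.33 ± 0.58 in females (adjusted p = 0.000902) and by 3.82 ± 0.58 in males (adjusted p = 0.00235), where 12.7% and 8.99% of all probe sets were called. Its difference from E10.5 to E11.5 was 2.61 ± 0.58, similar in size to that of the brighter probe set, and was not called (adjusted p = 0.262; 0.0601% of probe sets were called). Its difference from E9.5 to E10.5 was 0.84 ± 0.56 (adjusted p = 0.527; 0.498% called), where 1419542_at was called with an adjusted p of 0.00285. The probe sets of Dazl differed most in the earliest comparison, in which 1449502_at averaged 3.81 and 4.65, both dim. For the step to E12.5, 1449502_at differed by 1.86 in females (adjusted p = 0.212) and by 1.79 in males (adjusted p = 0.368), and neither was called. In this model 1419542_at had an adjusted p of 0.0286 in females and 0.0693 in males, with 0.87% and 0.381% of probe sets called, and Ddx4 had 0.062 in females, so that its female call was lost too.

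Ddx4 followed the same order of groups with a smaller range. It read 9.27 and 8.92 at E9.5, 10.71 and 10.81 at E10.5, 11.90 and 11.76 at E11.5, 12.60 and 12.45 in E12.5 females, and 12.36 and 12.43 in E12.5 males. At E13.5 it read 12.89 and 12.75 in females and 12.71 and 12.62 in males. Every group mean was separated from the next by arrays that did not overlap, in the order E13.5 female, E13.5 male, E12.5 female, E12.5 male, E11.5, E10.5 and E9.5. The 3 smallest of these gaps, 0.13, 0.14 and 0.16, were little larger than the SD within groups, which was at most 0.11 from E10.5 on.

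The rise of Ddx4 was 1.67 ± 0.16 from E9.5 to E10.5 (3.17-fold, adjusted p = 0.0012) and 1.07 ± 0.14 from E10.5 to E11.5 (2.10-fold, adjusted p = 0.0214). Without E11.5 replicate 1 the adjusted p of the later step was 0.177, and without E11.5 replicate 2 it was 0.0906. From E11.5 to E12.5 Ddx4 rose by 0.70 ± 0.14 in females (adjusted p = 0.0361), and the difference in males, 0.57 ± 0.14, was not called (adjusted p = 0.109). The female call was lost whenever any 1 of the 4 compared arrays was left out (adjusted p = 0.084 to 0.299). Whether the step differed between the sexes is the difference between males and females at E12.5, -0.13 ± 0.14 (adjusted p = 0.82).

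From E10.5 to E13.5 Ddx4 rose by 2.06 ± 0.14 in females (adjusted p = 1.65e-05) and by 1.91 ± 0.14 in males (adjusted p = 2.2e-05). Over this span 5 of the 9 germ cell markers fell in females and 4 in males, and of 10 endothelial markers 6 fell in females and 4 in males, where 18% and 12.9% of all genes were called. Their part in the rise of Dazl and Ddx4 was not tested. The difference of Ddx4 from E12.5 to E13.5 was 0.30 in females (adjusted p = 0.361) and 0.27 in males (adjusted p = 0.429), where 1.96% and 2.13% of all genes were called. None of the 4 genes was called by limma in either sex (1 in females and 0 in males at an unadjusted p under 0.05). At E13.5 males minus females gave -0.16 ± 0.14 (adjusted p = 0.609).

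The summed signal of blood markers fell over the early days in which Dazl and Ddx4 rose. The 9 measured blood genes, embryonic globins among them, had a summed linear signal of 13224 to 24664 at E9.5, 2643 to 3414 at E10.5 and 286 to 492 at E11.5. From E12.5 on the sum lay between 176 and 533, and at least 5 of the 9 genes were dim on each array. The globins Hba-x and Hbb-bh1 changed by -2.96 and -3.58 from E9.5 to E10.5 (adjusted p = 0.043 and 0.011). The sum over 15 markers of gonadal somatic cells was 3431 to 4927 at E9.5, 2807 to 3125 at E10.5 and 1775 to 1936 at E11.5. Cbx2 made up 43.9% to 82.4% of the sum on these arrays, and without Cbx2 the other 14 genes summed to 1029 to 2762, 787 to 1161 and 340 to 366. The part of other cells in the rise of Dazl and Ddx4 was not tested. Over the same days Dppa3, the gene of the reporter, read 13.09 and 13.37 at E9.5, 13.50 and 13.33 at E10.5, and 13.48 on both E11.5 arrays, and the germ cell sum was 40398 to 48584 at E10.5 and 39055 to 41730 at E11.5.

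**Figure D2:**
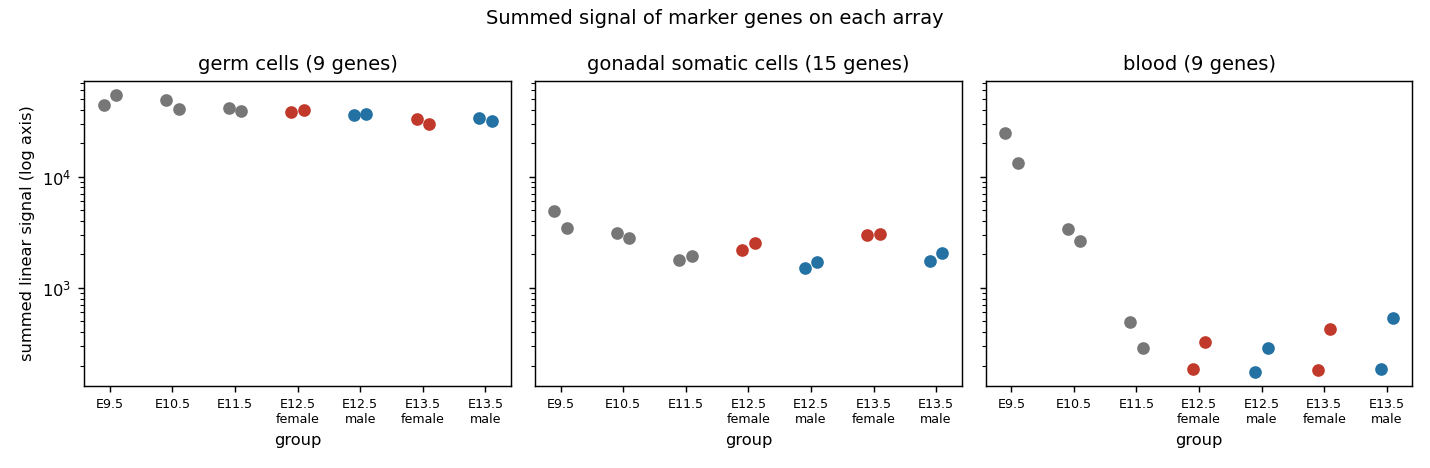
Summed linear signal (vertical axis, logarithmic) of the measured markers of germ cells, gonadal somatic cells and blood on each of the 14 arrays by group (grey, not sexed; red, female; blue, male). The germ cell sum goes from at least 43875 at E9.5 to at most 33847 at E13.5, while the blood sum goes from at least 13224 at E9.5 to at most 533 from E12.5 on.

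Dnd1 was bright on all 14 arrays and no change of it was called in any of the 11 comparisons. It read 11.67 and 11.59 at E9.5, 11.56 and 10.79 at E10.5, 11.69 and 11.03 at E11.5, and 11.70 and 11.76 in E12.5 females. Values were 11.02 and 11.25 in E12.5 males. At E13.5 they were 10.80 and 10.90 in females and 11.40 and 11.20 in males. The group means lay between 10.85 in E13.5 females and 11.73 in E12.5 females, a span of 0.88, and the groups in between overlapped for the most part.

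The pair of female groups at either end of that range did not overlap. The difference from E12.5 to E13.5 in females was -0.88 ± 0.27 (adjusted p = 0.132, limma), and males changed by 0.17 ± 0.27 over the same day (adjusted p = 0.854). With weights estimated for each array, the female difference was called (adjusted p = 0.0338, limma), in a model that called 1033 genes in place of 353. Males minus females gave -0.60 ± 0.27 at E12.5 (adjusted p = 0.39), with both male arrays below both female arrays. At E13.5 it gave 0.45 ± 0.27 (adjusted p = 0.384), with both male arrays above both female arrays. From E12.5 to E13.5 the sex difference changed by 1.05, with a 95% interval of 0.20 to 1.89, and this did not pass over all genes (adjusted p = 0.507, limma). None of the 4 genes was called by limma in this comparison (1 at an unadjusted p under 0.05), in which 0.0111% of all genes, or 2, were called.

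Across the earlier steps Dnd1 differed by -0.46 ± 0.26 from E9.5 to E10.5 (adjusted p = 0.393) and by 0.19 ± 0.27 from E10.5 to E11.5 (adjusted p = 0.976). From E11.5 to E12.5 it differed by 0.37 in females (adjusted p = 0.633) and by -0.23 in males (adjusted p = 0.87). From E10.5 to E13.5 the differences were -0.33 in females (adjusted p = 0.491) and 0.13 in males (adjusted p = 0.833). The replicates of E10.5 and E11.5 lay 0.77 and 0.66 apart, which is more than most of these differences.

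**Figure D3:**
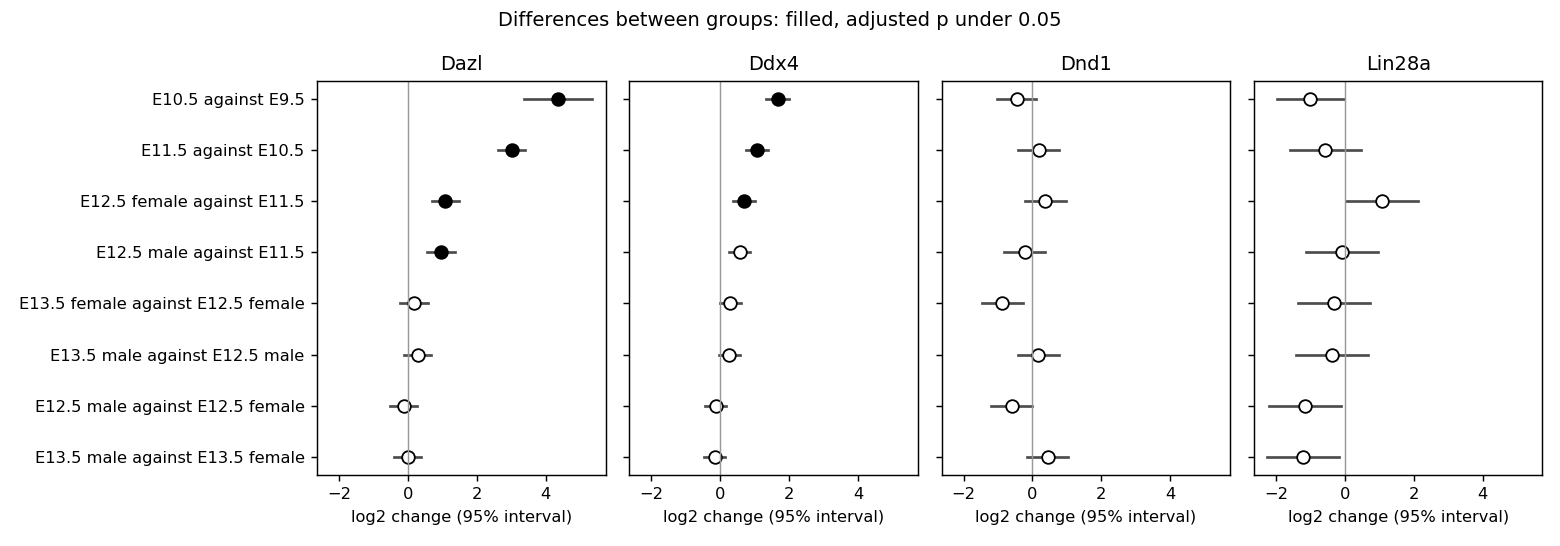
Log2 change of Dazl, Ddx4, Dnd1 and Lin28a (horizontal axis) in 8 comparisons, the first group minus the second, with 95% intervals from the limma model. Filled circles have an adjusted p under 0.05 over all genes. The filled circles belong to Dazl and Ddx4 up to E12.5, and those of Dnd1 and Lin28a are open.

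Lin28a was highest at E9.5 and lowest in E13.5 males, and none of its differences was called. The brighter probe set 1437752_at read 10.31 and 10.16 at E9.5, 9.91 and 8.57 at E10.5, 9.38 and 7.97 at E11.5, and 9.83 and 9.68 in E12.5 females. It read 8.73 and 8.47 in E12.5 males. At E13.5 it read 9.49 and 9.40 in females and 8.44 and 8.02 in males. The 4 female arrays, from 9.40 to 9.83, all lay above the 4 male arrays, from 8.02 to 8.73. The unsexed E10.5 and E11.5 groups each held 1 array near the female range and 1 near the male range. Replicate differences of E10.5 and E11.5 also correlated across 9016 genes above the median level (r = 0.694), so such a split was not confined to Lin28a. The part of sex or of the arrays in that split was not tested.

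Males minus females gave -1.16 ± 0.47 at E12.5 (95% interval -2.19 to -0.12, adjusted p = 0.311) and -1.22 ± 0.47 at E13.5 (95% interval -2.25 to -0.18, adjusted p = 0.145). At E12.5 2.42% of all genes were called and at E13.5 10.3%, and none of the 4 genes was called by limma on either day (2 and 1 at an unadjusted p under 0.05). A model of the 4 compared arrays alone leaves out the wide spread of Lin28a at E10.5 and E11.5. It called 763 genes at E12.5 and 1334 at E13.5, against 436 and 1856 in the main model. There the difference of Lin28a was called on both days (adjusted p = 0.0188 and 0.0304, limma). With the 3′ to 5′ difference of Gapdh as a covariate it was -1.31 and -1.12 (adjusted p = 0.146 and 0.106). The sum over markers of gonadal somatic cells was also higher in females: 2190 to 2537 against 1492 to 1719 at E12.5, and 2960 to 3025 against 1752 to 2058 at E13.5. Cbx2 carried 75.7% to 84.9% of it on these 8 arrays. Without Cbx2 the sum was 332 to 446 against 266 to 330 at E12.5 and 640 to 719 against 373 to 473 at E13.5. Lhx2, the brightest of the rest in E13.5 females, read 8.39 and 8.12 there against 5.07 and 5.44 in males. Gata4, Wt1 and Col3a1 were brighter in E13.5 males, with means of 6.02, 5.65 and 6.49 against 5.055, 4.28 and 5.515 in females. As a list, these 15 markers had a median sex difference of 0.005 at E12.5, with 0 called by limma (4 at an unadjusted p under 0.05), and of -0.005 at E13.5, with 4 called lower in males. Of 10 markers of male supporting cells 2 were called higher in males on each day, with median differences of 0.24 and 0.13. One of them, Cst9, was dim in females, with 3.24 and 2.01 at E12.5 and 3.52 and 1.15 at E13.5, against 7.20 and 7.84, then 9.11 and 8.44, in males. Of 8 markers of female supporting cells 0 were called at E12.5 (1 at an unadjusted p under 0.05, limma), with a median difference of -0.165. At E13.5, 3 of the 8 were called lower in males and 0 higher, with a median difference of 0.12. These are 37.5% of the list against 10.3% of all genes. The part of somatic cells in the difference of Lin28a was not tested.

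The replicates of E10.5 lay 1.34 apart in Lin28a and those of E11.5 lay 1.41 apart, with replicate 2 lower in both, against at most 0.42 in the other groups. The Gapdh difference was 0.44 and 1.38 on the E10.5 arrays and 1.18 and 2.53 on the E11.5 arrays, and its part was not tested within these groups. Differences that rest on these arrays were accordingly open to single libraries. From E9.5 to E10.5 Lin28a differed by -0.995 ± 0.45 (adjusted p = 0.304), and by -1.67 without E10.5 replicate 1, which was called (adjusted p = 0.0338), but by -0.33 without E10.5 replicate 2 (adjusted p = 0.929). From E10.5 to E13.5 it differed by 0.21 ± 0.47 in females (adjusted p = 0.835) and by -1.01 ± 0.47 in males (adjusted p = 0.212). Without E10.5 replicate 2 the male difference was -1.68 and was called (adjusted p = 0.0363), and without E10.5 replicate 1 it was -0.34 (adjusted p = 0.696).

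Between neighbouring days the differences of Lin28a were -0.57 from E10.5 to E11.5 (adjusted p = 0.94), 1.08 from E11.5 to E12.5 females (adjusted p = 0.346) and -0.08 from E11.5 to E12.5 males (adjusted p = 0.977). From E12.5 to E13.5 they were -0.31 in females (adjusted p = 0.845) and -0.37 in males (adjusted p = 0.795). The other probe set of Lin28a, 1421749_at, was dim on every array, from 1.47 in E13.5 female replicate 2 to 4.36 in E9.5 replicate 2. It gave no usable level. Males minus females on 1421749_at gave 0.52 at E12.5 and 0.98 at E13.5, opposite in sign to 1437752_at. Neither was called in the model of all probe sets (adjusted p = 0.891 and 0.52, limma). Averaging the 2 probe sets brought the sex difference to -0.32 at E12.5 and -0.12 at E13.5.

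Across the 12 arrays made under 1 protocol, the values of Dazl and Ddx4 moved together (Pearson r = 0.981), and those of Dnd1 and Lin28a less so (r = 0.457). Dazl correlated with Dnd1 at r = 0.065 and with Lin28a at r = -0.097. The arrays share their groups and, in part, their deviations, so that r describes the shared order of groups. Among 3208 genes brighter than the median gene and with a span of at least 1 between group means, the values most like those of Dazl were those of Ddx4, Vkorc1 (r = 0.957), Dcaf10 (0.953), Siah2 (0.950) and Mov10l1 (0.949). The 5 most like Ddx4 were Dazl, Mov10l1 (0.981), Mael (0.977), Siah2 (0.974) and Btbd18 (0.967). Mov10l1 and Mael act in the piRNA pathway. For Lin28a they were Pdpk1 (0.914), Braf (0.901), Fbln1 (0.898), Ciz1 (0.895) and Crabp1 (0.894). For Dnd1, the nearest of 3209 such genes were B4galt1 (0.796), Eif4ebp1 (0.792), Rcc1 (0.752), Tst (0.744) and Khdc1a (0.736). Dnd1 itself, with a span of 0.88, did not meet the span of 1. Genes as flat as Dnd1 were thus left out, and its lower r cannot be compared with those of the other genes.

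Of 22 measured partners of Ddx4 in the germ granule and the piRNA pathway, 12 rose and 1 fell from E10.5 to E13.5 in females, where 18% of all genes were called. In males 13 rose and none fell, where 12.9% of all genes were called. With Ddx4 included, the median change was 1.42 in females and 1.51 in males, against 0.08 and 0.07 over all genes. Tdrd7, a tudor protein of the granule, read 6.15 and 5.98 at E10.5 against 10.99 and 10.81 in E13.5 females and 10.01 and 10.26 in E13.5 males (adjusted p = 7.7e-06 and 1.5e-05). Mael read 7.74 and 8.75 at E10.5, 12.58 and 12.34 in E13.5 females and 12.04 and 11.98 in E13.5 males (adjusted p = 1.6e-05 and 2.8e-05). The Argonaute protein gene Piwil4, dim at E10.5 with 3.36 and 3.15, read 7.14 and 7.15 in E13.5 females and 7.84 and 7.94 in E13.5 males. On these genes the E13.5 arrays lay far above those of E10.5 in both sexes.

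The timing of these partners differed from gene to gene. From E9.5 to E10.5, the step confounded with the source study, 7 of the 22 rose (1.07% of all genes were called), with Asz1 up by 2.89 (adjusted p = 0.0012) and Mael by 2.59 (adjusted p = 0.0019). From E10.5 to E11.5, where Ddx4 itself was called, none of the 22 was called by limma (7 at an unadjusted p under 0.05), although their median change with Ddx4 was 0.40 against 0.01 over all genes. From E11.5 to E12.5, 5 rose in females (1.88% of all genes were called), led by Tdrd7 with 2.74 (adjusted p = 0.0016). In males 2 rose (1.01% called), Piwil4 with 2.12 (adjusted p = 0.0079) and Tdrd7 with 1.87 (adjusted p = 0.015). The 1 gene that fell to E13.5 in females was Prmt5, an arginine methyltransferase that prepares Piwi proteins for tudor binding, by 0.97 (adjusted p = 0.024). At E13.5 Prmt5 and Tdrd5 were higher in males than in females, by 0.91 (adjusted p = 0.047) and 1.39 (adjusted p = 0.0086). They were the 2 of the 22 called in this comparison. With Ddx4 included, 8.7% of the list was called, below the 10.3% of all genes. The Piwil4 and Prmt5 probe sets carry suffixes (_x_at and _s_at) that mark possible cross-hybridization. Among genes named below, so do those of Boll, Hmga2 and Drosha (_s_at) and of Tob2 (_x_at).

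**Figure D4:**
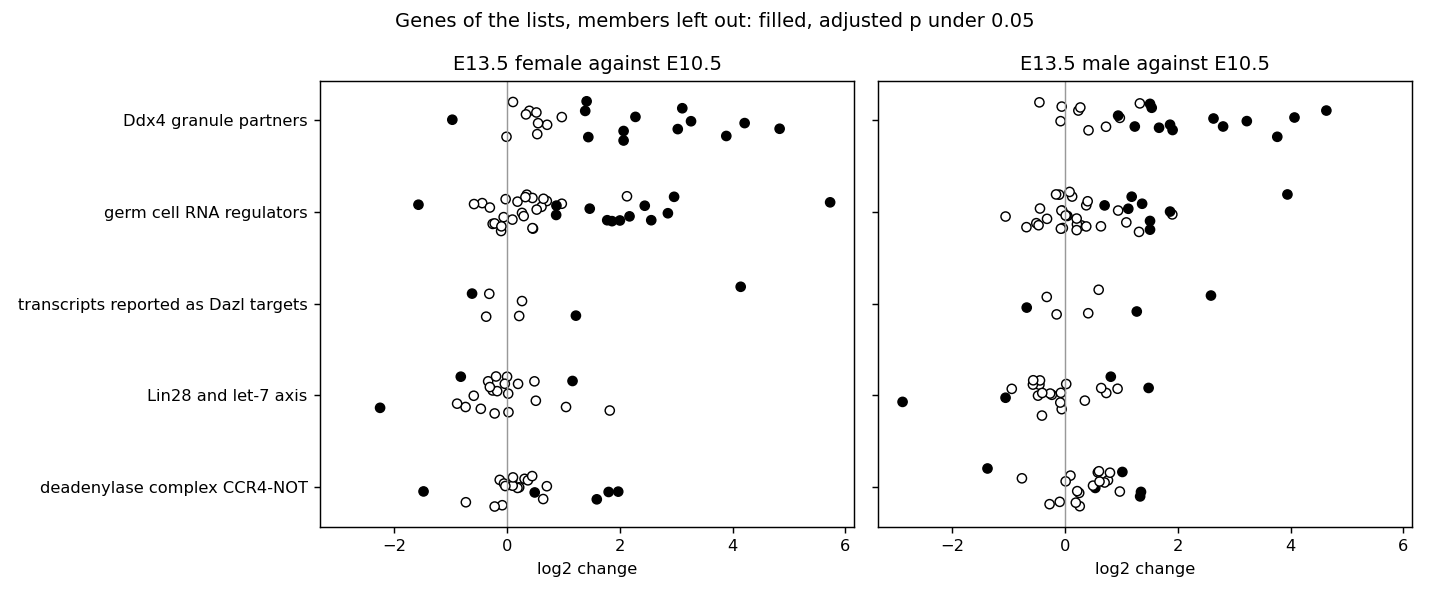
Log2 change from E10.5 to E13.5 (horizontal axis) of the measured genes of 5 lists, in females (left) and males (right), with Dazl, Ddx4, Dnd1 and Lin28a left out and points spread vertically for view. Filled circles have an adjusted p under 0.05 over all genes. Of the 22 granule partners 12 rose in females and 13 in males, while the Lin28 and let-7 genes lie on both sides of 0.

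Of 7 measured transcripts that earlier work reported as bound or regulated by Dazl, Ddx4 aside, 2 rose and 1 fell from E10.5 to E13.5 in each sex. Over all genes 18% were called in females and 12.9% in males. Sycp3, a component of the synaptonemal complex, read 7.42 and 7.93 at E10.5, 12.07 and 11.57 in E13.5 females and 10.57 and 9.96 in E13.5 males. It rose in both sexes (adjusted p = 1.6e-05 and 0.00019) and males minus females at E13.5 gave -1.56 (adjusted p = 0.0059). Tex19.1, a germline gene that protects against retrotransposons, rose by 1.23 and 1.27 (adjusted p = 0.000566 and 0.000529). The pluripotency gene Sox2 fell by 0.62 in females and by 0.68 in males (adjusted p = 0.0309 and 0.0262). Array values give transcript levels, and translation was not measured.

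Among genes linked to Dnd1, the measured ones were Cdkn1a, Cdkn1b and Lats2, inhibitors of cell growth reported to be protected from miRNAs by Dnd1, and none was called by limma in any of the 11 comparisons. At an unadjusted p under 0.05, 1 of the 3 passed from E9.5 to E10.5, 1 passed between the sexes at E13.5, and 0 passed elsewhere. Cdkn1b varied widely between replicates, with 7.06 and 3.77 at E10.5, and read 4.47 and 5.06 in E13.5 females and 6.10 and 7.29 in E13.5 males. Males minus females at E13.5 gave 1.93 ± 0.82 (adjusted p = 0.194). Cdkn1a read between 6.65 and 8.55 from E10.5 on, and Lats2 between 9.16 and 9.70. Nanos2, Nanos3 and Cnot1 were not analysed here.

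In the Lin28 and let-7 axis, 22 genes were measured besides Lin28a, of which 1 rose and 2 fell from E10.5 to E13.5 in females, and 2 rose and 2 fell in males. These are 13.6% and 18.2% of the list, near the 18% and 12.9% of all genes called. The median change was -0.18 in females and -0.25 in males, against 0.08 and 0.07 over all genes. Lin28b, the paralogue of Lin28a, was dim on 13 of 14 arrays and reached 4.88 in E13.5 female replicate 2. Hmga2, a chromatin protein and classical let-7 target, read 8.18 and 9.25 at E10.5, 6.75 and 6.19 in E13.5 females and 5.87 and 5.81 in E13.5 males. It fell in both sexes, with log2 changes of -2.25 in females (adjusted p = 0.0022) and -2.88 in males (adjusted p = 0.00065). At E11.5 Hmga2 already read 5.89 and 6.47. From E10.5 to E11.5, 2 of the 15 markers of gonadal somatic cells were called lower and 0 higher, against 0.0776% of all genes. Among the 15, Col3a1 went from a mean of 9.04 to 6.385. The part of other cells in the fall of Hmga2 was not tested. Igf2bp3, an RNA-binding protein that is also a let-7 target, rose by 1.17 and 1.49 (adjusted p = 0.0085 and 0.0029).

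Of the enzymes that act with Lin28a on let-7 precursors, the terminal uridylyltransferase Tut4 read 9.73 and 8.49 at E10.5 and 10.16 on both E13.5 female arrays (adjusted p = 0.0504), with 10.00 and 10.09 in E13.5 males (adjusted p = 0.0975). Tut7 read 8.54 and 9.13 at E10.5 and between 8.33 and 9.18 at E13.5. The exonuclease Dis3l2 read 7 and 6.10 at E10.5 and between 6.11 and 6.70 at E13.5. Neither was called from E10.5 to E13.5 in either sex. Of the microprocessor genes, Drosha rose by 0.82 in males (adjusted p = 0.029). Its partner Dgcr8 fell by 1.05 in males (adjusted p = 0.026) and was 1.25 lower in males than in females at E13.5 (adjusted p = 0.013). Prdm1, a let-7 target and germ cell specifier, fell by 0.82 in females (adjusted p = 0.011) and read 9.87 and 9.60 there against 10.60 and 10.50 at E10.5.

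Of 37 other regulators of germ cell transcripts measured, 12 rose and 1 fell from E10.5 to E13.5 in females, and 8 rose and none fell in males, where 18% and 12.9% of all genes were called. In E13.5 males 7 of the 37 were lower than in females and 2 were higher, which is 24.3% of the list against 10.3% of all genes. Meioc, which is needed for meiotic prophase, read 3.57 and 4.38 at E10.5, 9.90 and 9.51 in E13.5 females and 5.89 and 5.08 in E13.5 males, a sex difference of -4.22 (adjusted p = 0.00025). Boll, a relative of Dazl, read 8.50 and 8.14 in E13.5 females against 7.23 and 6.54 in males (adjusted p = 0.0107). The cytoplasmic polyadenylation factor Cpeb2 was lower in males (-2.52, adjusted p = 0.000936), and the RNA export factor Nxf2 was 1.5 higher in males (adjusted p = 0.0117).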

How the data were processed

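Total RNA of germ cells was amplified, labelled with biotin and hybridized to Affymetrix arrays, 1 array for each of 14 samples. The authors deposited log2 probe set signals, normalized over all 14 arrays together, per the labels and the series' design text. That the scale is log2 was inferred from its range of 0 to 14.04. Not given in the sources used here are the software and the background method. Of 45101 probe sets, 34945 had a single gene symbol in the platform annotation, 932 had several and 9224 had none, and 34741 matched a RefSeq gene by Entrez identifier.

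Linear models with 1 mean per group were fitted with limma 3.58.1 (R 4.3.3; lmFit, eBayes with an intensity trend). Of the 11 comparisons, 10 used the 12 arrays of the later ages, and E10.5 against E9.5 used all 14. A gene was represented by its probe set of highest mean (18032 genes), and every probe set was also fitted (34945). P-values are two-sided, with Benjamini-Hochberg adjustment within a comparison. The scripts were tested on simulated data. Replicate numbers were checked for pairing: the correlation of replicate differences between groups lay between -0.548 and 0.694. The numbers were therefore not taken to pair the samples across groups. This range does not decide pairing within a day, where the sexes correlated at 0.424 (E12.5) and 0.674 (E13.5). No model paired within a day was fitted.

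Genes named are the 4 genes, the 5 genes most correlated with each, up to 4 called genes of a list by size of change, and a fixed set of partners and targets. Cnot10 and Trim71 were named after their values were seen. The 4 genes, the lists and the comparisons were chosen with earlier results of these data known. Motif counts used the RefSeq promoter table alone.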

Additional observations from a re-analysis of the deposited data

How the results depend on the processing

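With 2 arrays per group, the calls for changes over single days depended on the model. The calls of Dazl and Ddx4 from E10.5 to E13.5 held in both sexes under all 17 alternatives run, with adjusted p between 7.71e-07 and 0.0177 (limma). In each comparison below the value is the number of the 4 genes called. For E11.5 against E10.5, 2 became 1 without the intensity trend, with array weights or with all 14 arrays in the model, and 0 with the compared arrays alone. Leaving out 1 array gave 1 to 2. For E12.5 females against E11.5, 2 became 1 under quantile normalization or the Gapdh covariate, and 0 with a gene's probe sets averaged, without the trend, with the compared arrays alone or with all 14 arrays. Leaving out 1 array gave 0 to 1. For E12.5 males against E11.5, 1 became 0 under all of these and with values floored at the 25th percentile, and leaving out 1 array gave 0 to 1. In E13.5 against E12.5 females 0 became 1 (Dnd1) with array weights, where 1033 of all genes were called in place of 353. With the compared arrays alone, the sex comparison went from 0 to 2 at E12.5 (Dnd1 and Lin28a) and from 0 to 1 at E13.5 (Lin28a). E10.5 against E9.5 went from 2 to 0. Over all genes these settings called 763, 1334 and 0 genes, against 436, 1856 and 193 in the main model. Quantile normalization changed the number of neighbouring groups that did not overlap to 2 for Dazl 1449502_at and to 1 for Lin28a 1421749_at.

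Changes of sign occurred in differences that were not called, and the cause was not tested. With the mean of probe sets, Lin28a gave 0.135 for E11.5 against E10.5, 0.04 for E12.5 males against E11.5 and -0.40 for E13.5 females against E10.5, and Dazl gave -0.14 for E13.5 against E12.5 males. With the Gapdh covariate, Lin28a gave 0.15 in females and 0.34 in males for E13.5 against E12.5. The sex difference of Dazl at E13.5 was 0.019 with that covariate and 0.07 under median centring. Leaving out 1 array gave, for Dnd1, -0.20 to 0.57 (E11.5 against E10.5), -0.56 to 0.11 (E12.5 males against E11.5), -0.71 to 0.06 (E13.5 females against E10.5) and -0.26 to 0.51 (E13.5 males against E10.5). For Lin28a it gave -1.27 to 0.14, -0.78 to 0.63 and -0.47 to 0.88 in the first 3 of these comparisons. For Dazl it gave -0.005 to 0.36 (E13.5 against E12.5 females) and -0.19 to 0.17 (sexes at E13.5).

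The replicate numbers were not taken to pair the samples. Replicate differences did correlate between the sexes, at r = 0.424 at E12.5 and 0.674 at E13.5. A replicate block holds 1 offset for all groups, so it cannot decide whether arrays of the same day were paired. With a replicate block, Dazl differed by 3.01 (adjusted p = 0.000389) and Ddx4 by 1.07 (adjusted p = 0.0393) from E10.5 to E11.5, and none of the calls of the 4 genes changed. With the numbers crossed, an alternative added after seeing the data, 1 gene was called in E12.5 females against E11.5. Without the arrays with a Gapdh difference above 3, also added later, no call of the 4 genes changed.

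Counts over all genes moved by more than 1.5 times in each comparison. Over the settings they ranged from 0 to 39 (E11.5 against E10.5), 23 to 741 and 1 to 242 (E12.5 females and males against E11.5), 0 to 1033 and 13 to 801 (E13.5 against E12.5, females and males), 998 to 3369 and 574 to 2682 (E13.5 against E10.5, females and males), 93 to 1313 and 412 to 2119 (sexes at E12.5 and E13.5), 0 to 46 (change of the sex difference) and 0 to 1930 (E10.5 against E9.5).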

Other observations

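The CCR4-NOT deadenylase, with which Nanos and Dnd1 proteins act, shortens poly(A) tails. Of 22 measured subunits and partners, 4 rose and 1 fell from E10.5 to E13.5 in each sex, 22.7% of the list against 18% of all genes in females and 12.9% in males, and the median change was 0.15 in females and 0.52 in males, against 0.08 and 0.07 over all genes. Called in both sexes were the antiproliferative adaptors Tob1 (1.98 in females and 1.33 in males) and Tob2 (1.80 and 1.35), which bring the complex to transcripts, and the subunit Cnot10 (0.50 and 0.54). The decapping enzyme gene Dcp2 fell by 1.48 in females and by 1.37 in males (adjusted p = 0.00041 and 0.00076, limma).

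Trim71, another let-7 target and an RNA-binding protein of stem cells, differed between replicates of E10.5 (10.27 and 8.86) and of E11.5 (10.02 and 8.69), the same arrays on which Lin28a differed. Over the 9016 genes above the median level, the replicate differences of E10.5 and E11.5 correlated at r = 0.694 across genes, which are not independent replicates.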
